A study of Homo sapiens with 78 samples.

Results

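WWTR1 (which encodes TAZ), its paralog YAP1, the DNA-binding partners TEAD1 and TEAD4, and 6 further genes tied to them, CCN1, CCN2, ANKRD1, AMOTL2, LATS2 and AJUBA, were followed in single A375 and Jurkat cells. These 10 genes are 10 of the 58388 genes with a transcript in the quantified set, and all 10 reached the minimum of 100 estimated counts over all wells that 15996 genes reached. They were chosen from these same counts: WWTR1 was picked for its counts in A375 wells and the others for their link to it. The differences between the cell lines below are therefore a description of the genes and carry no test. CCN1 and CCN2 are the current names of CYR61 and CTGF.

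YAP1 and TAZ are transcriptional coactivators that have no DNA-binding domain of their own and act mainly through the TEAD transcription factors. The Hippo kinases MST1 and MST2 (encoded by STK4 and STK3) activate LATS1 and LATS2, which phosphorylate YAP1 and TAZ and keep them out of the nucleus. In adherent cells the 2 coactivators respond to cell spreading, cell contact and serum, and many of their target genes encode secreted matrix-associated proteins or feedback regulators of the pathway.

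A375 is an adherent line from a human malignant melanoma and Jurkat (clone E6-1) is a line from a human T cell leukemia that grows in suspension. Live single cells of both untreated lines were sorted by FACS, and strand-specific libraries of their total RNA were prepared with 1 of 2 Takara kits, SMARTer v2 Pico Input Mammalian (634413) or SMART-Seq Stranded (634444). There were 21 A375 wells and 18 Jurkat wells with each kit, 78 in all. A375 cells were cultured in DMEM, stained with anti-CD47 and sorted into PBS, while Jurkat cells were cultured in RPMI-1640, stained with anti-CD81 and sorted into lysis solution. Medium, antibody, sort solution and cell line therefore cannot be told apart. Each well is 1 cell and no separate cultures are named, so each combination of line and kit counts as 1 sample, no p-value is given, and every interval covers counting error only. The libraries carry no molecular identifiers, so reads that stem from the same molecule cannot be merged and the true error is larger than these intervals.

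Total counts on Ensembl transcripts ranged from 250 to 2356198 per A375 well and from 353965 to 1258530 per Jurkat well. In 11 wells, all A375 (6 with kit 634413 and 5 with kit 634444), the total stayed under 25% of the median of 718370 over all wells. Values per well below refer to the other 67 wells (15 and 16 A375 wells, 18 and 18 Jurkat wells), called deep wells, whereas sums use all wells. No pair of the 78 wells held identical values. The labelled lines carried their own markers: 11 T cell genes, among them CD3D and LCK, summed to between 1350 and 3609 CPM (counts per 1000000 counts on Ensembl transcripts) in every deep Jurkat well and reached at most 45.2 CPM in an A375 well. Of 10 melanoma genes, SOX10, MITF, S100B, MIA and CSPG4 were at least 2-fold higher in A375 with both kits. The summed level of the 10 lay in deep A375 wells between 183 and 3119 CPM against at most 58.1 CPM in Jurkat wells. The pigmentation genes PMEL, MLANA, TYR, TYRP1 and DCT stayed under 100 counts over all 78 wells.

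TEAD proteins bind sequences built around a hexamer that reads GGAATG on 1 strand and, on the opposite strand, CATTCC. Promoters were searched for it on both strands, and the 2 spellings cannot overlap. In the 250 bases before the transcript start, 11.9% of 35116 RefSeq promoter windows held it at least once. It was found 2 or more times in 0.928% of these windows and 3 or more times in 0.0797%. RefSeq windows (GRCh38.p14) were matched for 7 of the 10 genes. Promoters of TEAD1, TEAD4 and CCN1 were not analysed here. CCN2 is shown for its 3 matches, ANKRD1 for its 2 and YAP1 because a coactivator gene itself holds 1. Each sequence is the 250 bases before the start, 5′ to 3′ on the gene's strand, with the matches in capitals.
CCN2: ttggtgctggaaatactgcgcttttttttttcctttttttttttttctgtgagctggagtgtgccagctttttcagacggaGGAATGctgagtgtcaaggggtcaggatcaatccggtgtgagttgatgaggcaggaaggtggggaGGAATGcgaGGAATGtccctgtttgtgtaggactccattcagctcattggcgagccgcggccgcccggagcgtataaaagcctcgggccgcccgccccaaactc
ANKRD1: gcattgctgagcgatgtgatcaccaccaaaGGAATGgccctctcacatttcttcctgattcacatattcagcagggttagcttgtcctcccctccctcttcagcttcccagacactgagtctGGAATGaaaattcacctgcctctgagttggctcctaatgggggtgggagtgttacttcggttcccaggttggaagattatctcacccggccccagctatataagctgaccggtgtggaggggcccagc
YAP1: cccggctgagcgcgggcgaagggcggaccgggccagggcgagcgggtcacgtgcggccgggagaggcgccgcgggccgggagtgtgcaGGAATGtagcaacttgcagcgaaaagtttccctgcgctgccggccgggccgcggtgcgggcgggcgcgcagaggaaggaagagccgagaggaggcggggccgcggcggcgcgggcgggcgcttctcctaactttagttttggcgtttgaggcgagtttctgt
The CCN2 window lies at chr6:131951373-131951622 on the minus strand, the ANKRD1 window at chr10:90921088-90921337 on the minus strand and the YAP1 window at chr11:102110197-102110446 on the plus strand. None of these 3 windows overlapped an exon of its gene. The CCN2 matches began 169, 104 and 95 bases before the start, the ANKRD1 matches 220 and 128 bases before it, and the YAP1 match 162 bases before it. AMOTL2 held 1 match in 1 of its 2 windows, 69 bases before the start, and AJUBA 1 match in 1 of its 2 windows, 59 bases before the start. LATS2 held 1 match, 9 bases after the start, and neither WWTR1 window held one. The AMOTL2 and AJUBA windows with a match, and both WWTR1 windows, overlapped an exon of their gene. A match is a string of letters and no measure of binding.

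**Figure D1:**
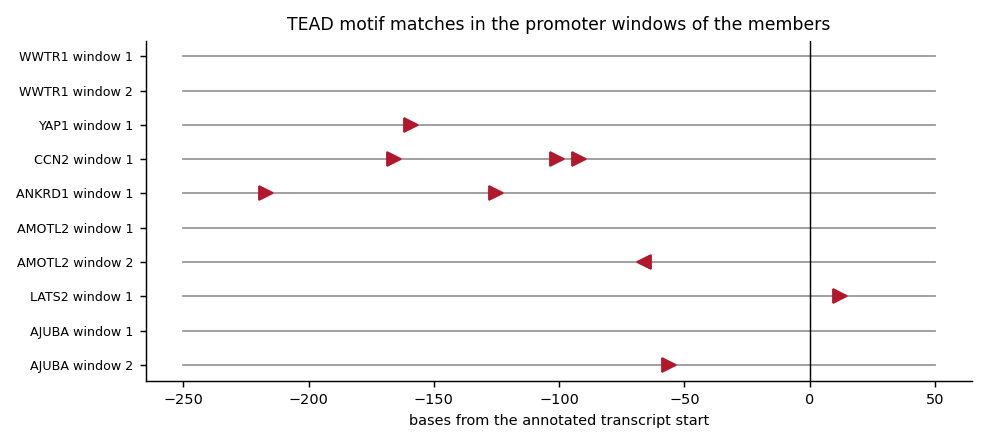
Matches to GGAATG (right-pointing) or CATTCC (left-pointing) in the 10 RefSeq promoter windows of the members, by distance in bases from the transcript start (vertical line). CCN2 holds 3 matches before the start, ANKRD1 holds 2, and the WWTR1 windows hold none.

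WWTR1 (ENSG00000018408, chr3:149517235-149736714, GRCh38, minus strand) was present in every deep A375 well and in no Jurkat well. With kit 634413 its level in deep A375 wells ran from 647 CPM through a median of 902 to 2819 CPM, and with kit 634444 from 249 through 934 to 2353 CPM. The well at 249 CPM, well 10, had the lowest share of counts on protein coding genes of all deep wells (59.2%). The next lowest WWTR1 level with that kit was 575 CPM. All 36 Jurkat wells were at 0 counts, so the lines did not overlap among deep wells. Summed over all wells, 17193 counts gave 1082 CPM [1065, 1098; 95% CI] with kit 634413 and 13133 counts gave 982 CPM [965, 999] with kit 634444. With the Jurkat sum of 0 taken as 3 counts (0.191 and 0.238 CPM), WWTR1 was at least 5673-fold and 4133-fold higher in A375. Each ratio given as at least a value against a sum of 0 rests on these 3 counts. The exact 95% lower limits were smaller, here 4613-fold and 3360-fold. Of the 11 shallow A375 wells, 5 also held WWTR1, 3 of them with 23 counts together and 2 with 12 counts. Among the 467 protein coding genes with 100 counts or more and 0 counts in every Jurkat well, WWTR1 took the largest share of A375 counts (1031 CPM as the geometric mean of the kits, not corrected for length), before the matrix gene TNC (869 CPM).

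Most WWTR1 counts fell on 1 of its 12 transcripts. WWTR1-203, a protein coding transcript of 5030 bases, took 83.3% of the A375 counts, and WWTR1-201 took 11.2%. Kallisto divides reads between transcripts that share sequence, so shares of transcripts here and below are estimates. They are shares of counts, which favour long transcripts, and they change per length. By summed TPM WWTR1-203 held 26.4%, below the 50.3% on WWTR1-208, which rests on 7 counts in 1 shallow well. The antisense gene WWTR1-AS1 held 23 and 28 counts in A375 with kits 634413 and 634444, and 28 counts and 1 count in Jurkat. WWTR1-IT1, an intronic transcript on the same strand, held 101 and 34.6 counts in A375 and 0 and 9 in Jurkat.

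YAP1 (ENSG00000137693, chr11:102110447-102233424, plus strand) was also present in every deep A375 well and nearly absent from Jurkat. Deep A375 wells held 20.4 CPM at the lowest, 140 at the median and 253 at the highest with kit 634413, and 71.0, 163 and 228 CPM with kit 634444. YAP1 was detected in 15 of 15 and 16 of 16 deep A375 wells, and in Jurkat a single count appeared in 1 of 18 wells with kit 634413 and none with kit 634444. The summed levels in A375 were 124 CPM [119, 130] and 140 CPM [134, 147]. The A375 to Jurkat ratio was 1951 [350, 77107] with kit 634413, which rests on that single Jurkat count, and at least 590 with kit 634444. No single YAP1 transcript took most counts, and the leading one differed between kits. With kit 634413 YAP1-202 held 590 counts and YAP1-209 held 528, whereas with kit 634444 YAP1-209 held 695, YAP1-201 held 452 and YAP1-202 held 86.4. By summed TPM over both kits YAP1-206 held 19.4% and YAP1-209 15.9%.

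Levels of different genes can be compared only per length, in TPM. On that scale WWTR1 lay above YAP1 in all 31 deep A375 wells. The WWTR1 to YAP1 ratio of TPM within a well ran from 1.70 through a median of 7.47 to 16.04 with kit 634413 and from 1.39 through 5.27 to 13.9 with kit 634444. Median TPM in deep A375 wells with kit 634413 put WWTR1 first (207 TPM), then YAP1 (32.5), CCN1 (32.3), TEAD4 (18.3), TEAD1 (14.4), AMOTL2 (9.48) and LATS2 (6.92), with CCN2, ANKRD1 and AJUBA at 0. With kit 634444 the order was WWTR1 (170 TPM), YAP1 (36.5), CCN1 (28.7), TEAD1 (19.02), AMOTL2 (10.4), TEAD4 (5.64), LATS2 (4.34), AJUBA (2.88) and CCN2 (2.52). With kit 634413 the lowest WWTR1 well (115 TPM) lay above the highest YAP1 well (73.4 TPM), while with kit 634444 the ranges overlapped (lowest WWTR1 well 31.8 TPM, highest YAP1 well 79.0 TPM). The well ranges of YAP1, CCN1, TEAD1 and TEAD4 overlapped each other with both kits.

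**Figure D2:**
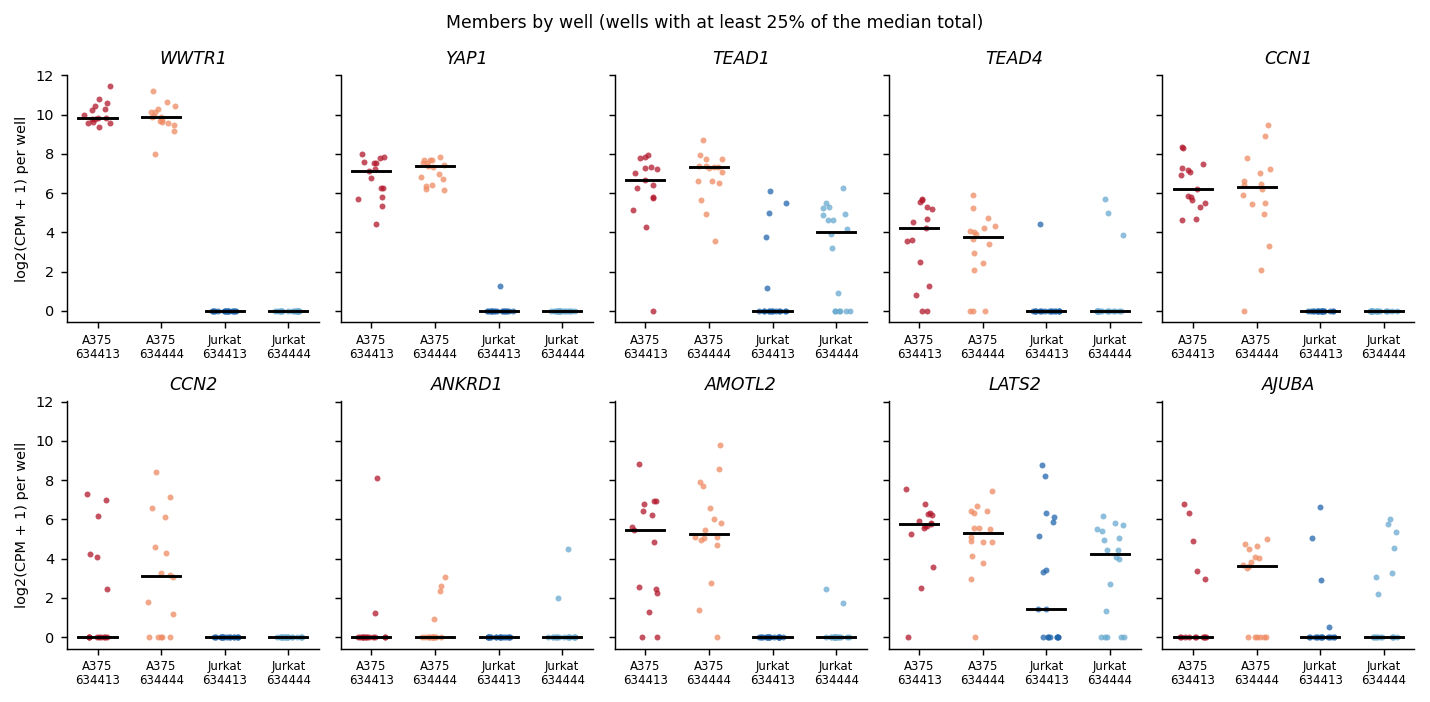
Level of each of the 10 genes in the 67 deep wells, as log2(CPM + 1), by cell line and kit. Points are wells and bars are medians. WWTR1 and YAP1 are above 0 in all deep A375 wells, the Jurkat points of WWTR1, CCN1 and CCN2 all sit at 0, and LATS2 and AJUBA overlap between the lines.

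TEAD1 (ENSG00000187079, chr11:12674421-12944737, plus strand), a factor that recruits YAP1 or TAZ to DNA, was the TEAD gene with the most counts and was present in both lines. Deep A375 wells ran from 0 through a median of 102 to 243 CPM with kit 634413 and from 10.6 through 157 to 413 CPM with kit 634444. Jurkat wells ran from 0 through 0 to 68.5 CPM and from 0 through 15.5 to 76.6 CPM, so the lines overlapped. In sums TEAD1 was 12.9-fold higher in A375 [10.8, 15.6] with kit 634413 (108 against 8.39 CPM) and 7.81-fold higher [6.83, 8.97] with kit 634444 (148 against 19.01 CPM). Jurkat well 2 of kit 634413 held 42.4% of the TEAD1 counts of its group, and without it the ratio was 21.3. TEAD1-203, a transcript of 8477 bases, took most counts in both lines, 79.0% in A375 and 73.5% in Jurkat. By summed TPM it held 38.7% in A375 and 40.7% in Jurkat, where TEAD1-206 held 42.2%.

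TEAD4 (ENSG00000197905, chr12:2959330-3040676, plus strand) was 23.4-fold higher in A375 [13.97, 42.2] with kit 634413 and 2.82-fold higher [2.09, 3.84] with kit 634444, on few counts. It was detected in 13 of 15 and 13 of 16 deep A375 wells, and in 1 and 3 of 18 Jurkat wells. Summed levels were 22.3 and 13.4 CPM in A375 against 0.953 and 4.75 CPM in Jurkat, from 15 and 60 Jurkat counts. All 15 Jurkat counts with kit 634413 came from well 14, and without it the ratio was at least 111. With kit 634444 well 13 of Jurkat held 23 of the 60 counts, and without it the ratio was 4.40. TEAD4 was the member above the 2-fold limit by the smallest margin. By mean TPM over all wells, the shallow A375 wells included, it was not past it with both kits. In deep wells its mean TPM was 22.2 and 11.9 in A375 against 0.850 and 4.60 in Jurkat.

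The remaining TEAD genes were also higher in A375. TEAD2 reached 8.43 and 9.57 CPM in A375 against 0.381 and 0.0792 CPM in Jurkat, and TEAD3 reached 6.11 and 5.56 CPM against 0 and 0.317 CPM. A375 well 14 of kit 634413 held 74 of the 97 TEAD3 counts, and without it the bound of the TEAD3 ratio fell from 32.0 to 8.70. All 6 Jurkat counts of TEAD2 with that kit were in well 14, and without it the ratio rose from 22.1 to at least 42.2. Per length, TEAD1 made up 39.2% and 52.9% of the mean TPM of the 4 TEAD genes in deep A375 wells, TEAD4 47.2% and 29.3%, TEAD2 8.98% and 14.6%, and TEAD3 4.62% and 3.16%. The order of TEAD1 and TEAD4 per length thus differed between the kits.

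CCN1 (ENSG00000142871, chr1:85580761-85584589, plus strand) encodes a secreted matricellular protein and is a classical target of YAP1 and TAZ. Its deep A375 wells ran from 24.0 through 72.2 to 324 CPM with kit 634413 and from 0 through 78.6 to 706 CPM with kit 634444. All Jurkat wells were at 0. Sums of 109 CPM [104, 114] and 140 CPM [133, 146] made CCN1 at least 571-fold and at least 587-fold higher in A375. CCN1-201 held 98.6% of the counts and 90.2% of the summed TPM.

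CCN2 (ENSG00000118523, chr6:131948176-131951372, minus strand), a related secreted protein whose promoter is printed above, was found in fewer cells. It was detected in 6 of 15 deep A375 wells with kit 634413 and 11 of 16 with kit 634444, and in no Jurkat well. The highest deep wells held 158 and 336 CPM, against medians of 0 and 7.77 CPM. Summed levels were 28.7 CPM [26.2, 31.5] and 38.1 CPM [34.8, 41.5], at least 151-fold and at least 160-fold above Jurkat. Single wells carried much of this: A375 well 6 of kit 634444 held 47.3% of the counts, and without it the level was 21.2 CPM and the ratio at least 89.1. LINC01013, which overlaps CCN2 on the opposite strand, was detected in 14 and 15 A375 wells with 458 and 459 counts, and in 4 and 10 Jurkat wells with 61.9 and 76.2 counts. Kallisto was run in its stranded mode, and the Jurkat wells had LINC01013 counts with CCN2 at 0.

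ANKRD1 (ENSG00000148677, chr10:90912096-90921087, minus strand), a nuclear ankyrin repeat protein and a target commonly used as a readout of YAP1 and TAZ, was rare in both lines. With kit 634413 A375 held 288 counts, of which 285 came from well 3 and 3 from 1 further well. With kit 634444 there were 21 counts in 4 A375 wells and 20 counts in 2 Jurkat wells, 1.58 CPM in each line, a ratio of 0.998 [0.511, 1.93]. With kit 634413, where Jurkat was at 0, the ratio was at least 95.0, and without A375 well 3 only 0.202 CPM was left, at which no fold can be given. Jurkat well 15 held 18 of the 20 counts of its group, and without it the kit 634444 ratio was 9.26 [2.26, 81.5], on the 2 Jurkat counts left. Without A375 well 4 of kit 634444, which held 12.1 counts, the ratio with that kit was 0.483 [0.194, 1.11].

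AMOTL2 (ENSG00000114019, chr3:134355347-134375479, minus strand) encodes an angiomotin that binds YAP1 and holds it at junctions, and is itself a target gene. Deep A375 wells ran from 0 through 43.3 to 456 CPM and from 0 through 38.2 to 897 CPM. In Jurkat the gene was at 0 with kit 634413 and at 5 counts in 2 wells with kit 634444. The sums, 76.1 and 111 CPM, were at least 399-fold and 280-fold [120, 862] above Jurkat. Well 3 of kit 634413 and well 12 of kit 634444 held 39.3% and 40.2% of the A375 counts, and without them the ratios were at least 259 and 176. The 5 Jurkat counts split into 3 in well 5 and 2 in well 15, so without either well the ratio with kit 634444 rests on fewer counts still. AMOTL2-211 led with each kit, at 481 counts each, 35.7% of the A375 counts and 27.1% of the summed TPM. The next was AMOTL2-202 with kit 634413 (269 counts) and AMOTL2-201 with kit 634444 (363 counts).

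LATS2 (ENSG00000150457, chr13:20973036-21061586, minus strand), the kinase that phosphorylates YAP1 and TAZ and is also among their targets, was present in both lines with a difference under 2-fold. Deep A375 wells ran from 0 through 52.8 to 187 CPM and from 0 through 39.0 to 171 CPM, and Jurkat wells from 0 through 1.71 to 435 CPM and from 0 through 18.2 to 71.1 CPM. The medians were higher in A375 with both kits while the ranges overlapped. In sums LATS2 was 1.35-fold [1.22, 1.48] and 1.77-fold [1.55, 2.03] higher in A375, under the 2-fold limit. As a mean of well CPM over all wells the direction turned with kit 634413 (log2 ratio −0.35), and without Jurkat well 4, which held 293 of 725 counts, the ratio with that kit was 2.11. Nearly all counts were on LATS2-201 in both lines (98.2% and 99.9%), which held 73.5% and 98.3% of the summed TPM, and the antisense gene LATS2-AS1 was at 0 in every group.

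AJUBA (ENSG00000129474, chr14:22971177-22982551, minus strand) encodes a LIM protein that binds LATS kinases and dampens their action. It was detected in 5 and 10 A375 wells and in 3 and 7 Jurkat wells, at 13.03 and 11.8 CPM against 7.94 and 8.55 CPM. The ratios were 1.64 [1.31, 2.06] and 1.38 [1.07, 1.77], both under the 2-fold limit. The direction turned by mean TPM with kit 634413 (log2 ratio −1.74) and as a mean of well CPM with kit 634444 (log2 ratio −0.37). Both means were taken over all wells, the shallow A375 wells included. Jurkat well 4 held 100 of the 125 counts with kit 634413, and without it the ratio was 7.68. Without A375 well 3, which held 113 of 207 counts, it was 0.798. Without Jurkat well 7 of kit 634444 it was 2.26. In A375 AJUBA-202 held 80.2% of the counts and 45.9% of the summed TPM. In Jurkat AJUBA-206, a retained-intron transcript of 558 bases, held 100 counts with kit 634413 and 4 with kit 634444, where AJUBA-202 held 46 and AJUBA-201 42.8. A second gene annotated on the same strand across AJUBA, ENSG00000259132, held 57.3 and 54.4 counts in A375 and 248 and 66.2 counts in Jurkat, so the division of reads between the 2 genes is uncertain.

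Over the whole group, 7 of the 10 genes were at least 2-fold higher in A375 with both kits (WWTR1, YAP1, TEAD1, TEAD4, CCN1, CCN2 and AMOTL2) and 0 were lower. Across the 15996 genes the share at least 2-fold higher was 24.8%, and the share at least 2-fold lower was 15.2%. With kit 634413 alone 8 members were higher (33.4% of all genes) and with kit 634444 alone 7 (31.8% of all genes). Nothing is read from these shares, since the members were chosen from the same contrast. The median log2 ratio over the 10 members was 6.90 and 5.14, against 0.158 and 0.143 over all genes, with Jurkat sums of 0 to 2 counts taken as 3. Leaving out each of the 78 wells in turn gave 7 or 8 genes, the eighth being ANKRD1 without Jurkat well 15 of kit 634444, with the 2 Jurkat counts left taken as 3.

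In A375 ANKRD1 was the 1 member at least 2-fold apart between kits, 11.5-fold lower with kit 634444 on the strength of the 285 counts in well 3 of kit 634413. Over all genes 17.5% were that far apart. Without that well the direction turned, and ANKRD1 was 7.77-fold [2.32, 40.7] higher with kit 634444, on the 3 counts left with kit 634413. Without it AMOTL2 was also 2.24-fold higher with kit 634444 (1.46-fold with all wells) and AJUBA 1.85-fold higher (0.902-fold with all wells). Without well 12 of kit 634444 AMOTL2 stood at 0.915-fold, and without well 6 CCN2 stood at 0.737-fold instead of 1.32-fold. The WWTR1 level differed little, with a log2 ratio of kit 634444 over kit 634413 of −0.14. In Jurkat 4 members were at least 2-fold apart between kits (28.0% of all genes), and TEAD1, TEAD4, ANKRD1 and AMOTL2 were each higher with kit 634444. For ANKRD1 and AMOTL2 these calls end when 1 well of kit 634444 is left out: without well 15 ANKRD1 had 2 Jurkat counts against 0, and without well 5 or well 15 AMOTL2 had 2 or 3 against 0, at which no fold can be given. For TEAD1 the levels were 19.01 against 8.39 CPM, a ratio of 2.27 [1.83, 2.82], and the gene was detected in 12 against 5 of 18 wells. For TEAD4 the ratio was 4.99 [2.80, 9.46], and without Jurkat well 14 of kit 634413 it was at least 23.8, without well 13 of kit 634444 3.19. Without Jurkat well 2 of kit 634413 the TEAD1 ratio was 3.73. Without Jurkat well 4 of kit 634413 the AJUBA ratio between kits rose from 1.08 to 5.04 and the LATS2 ratio from 0.561 to 0.880, and without well 7 of kit 634444 the AJUBA ratio was 0.655. Thinning each deep well to 200000 counts left TEAD1 in 3 Jurkat wells with kit 634413 and 11 with kit 634444.

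Single A375 cells differed in how many of the genes they held. The number of members detected per deep A375 well ran from 6 through a median of 7 to 10 with kit 634413 and from 6 through 8 to 10 with kit 634444. In Jurkat it ran from 0 through 1 to 2 and from 1 through 2 to 5. The deep wells of the lines did not overlap in this count. Nothing is read from that, since the members were chosen from the same contrast. The thinned wells kept WWTR1 and YAP1 in all 15 and all 16 A375 wells, CCN1 in 15 and 14, AMOTL2 in 10 and 15, CCN2 in 6 and 10 and ANKRD1 in 1 and 3.

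Well 3 of kit 634413, picked out after the values were seen, held the highest level of 6 members among the 15 deep A375 wells of its kit. These were TEAD1 (243 CPM), CCN2 (158 CPM), ANKRD1 (273 CPM), AMOTL2 (456 CPM), LATS2 (187 CPM) and AJUBA (108 CPM). It ranked 2 of 15 for YAP1 (225 CPM), TEAD4 (49.8 CPM) and CCN1 (316 CPM). Its WWTR1 level of 759 CPM ranked 13 of 15. Among the wells of kit 634444, well 6 held the highest WWTR1 (2353 CPM), TEAD1 (413 CPM) and CCN2 (336 CPM), with TEAD4 and AJUBA at 0.

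**Figure D3:**
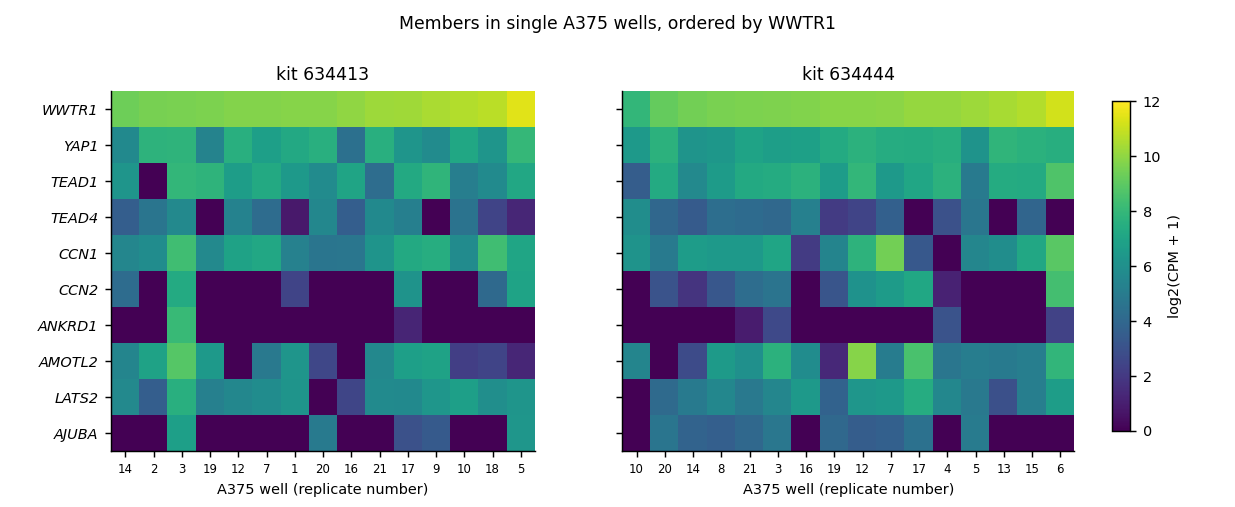
Levels of the 10 genes in the 31 deep A375 wells as log2(CPM + 1), with wells ordered from the lowest to the highest WWTR1 within each kit. The WWTR1 row is bright throughout. Well 3 of kit 634413 is bright in ANKRD1, AMOTL2, LATS2, CCN2 and AJUBA.

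Across the 31 deep A375 wells, rank correlations were computed between members. Among 36 pairs of the 9 members with a mean of at least 10 counts per well, Spearman's rho ran from −0.41 (TEAD1 and TEAD4) through a median of 0.127 to 0.485 (CCN2 and AJUBA). With WWTR1, rho was 0.359 for LATS2, 0.264 for CCN1, 0.165 for TEAD1, 0.152 for YAP1, 0.0563 for CCN2, −0.10 for AMOTL2, −0.11 for AJUBA and −0.37 for TEAD4. Several differed between the kits: with kits 634413 and 634444 rho was −0.07 and 0.438 for TEAD1, 0.025 and 0.435 for YAP1, and −0.35 and 0.156 for AMOTL2. These are descriptions over wells that share lines, kits and sequencing depth, and in counts this sparse a weak correlation is no finding. The 5 genes of 10157 with the highest rho to WWTR1 were PPP6R1 (0.697), MRPL38 (0.686), SERF2 (0.614), SRGAP2C (0.606) and MCCC2 (0.599). None of these 5 is a member or on the pathway and target lists. For SERF2 rho was 0.379 with kit 634413 and 0.850 with kit 634444.

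The Hippo pathway as a whole was read from a list of 41 genes, which includes 7 of the members. Of the 39 with at least 100 counts, 17 were at least 2-fold higher in A375 with both kits, 4 were lower and 18 were neither, with median log2 ratios of 0.803 and 0.826 against 0.158 and 0.143 over all genes. Over all 15996 genes 24.8% were higher and 15.2% lower. Among the 17 are the members WWTR1, YAP1, TEAD1, TEAD4 and AMOTL2. The list was also chosen with earlier results of these data known, so nothing is read from its counts. Leaving out 1 well at a time moved these counts to between 16 and 18 higher and between 3 and 5 lower. Both coactivators and all 4 TEAD genes were higher. Of the vestigial-like cofactors, which compete for TEAD binding, neither VGLL3 (ratios 1.55 and 2.42) nor VGLL4 (0.686 and 0.432) passed the limit with both kits (without Jurkat well 7 of kit 634413 the VGLL3 ratio with that kit was 3.68), and VGLL1 and VGLL2 had fewer than 100 counts.

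In the core kinase cassette 0 of 7 genes passed the limit with both kits. Of all 15996 genes, 9594 passed it in neither direction. STK4, which encodes the kinase MST1, reached 184 and 169 CPM in A375 against 156 and 160 CPM in Jurkat, ratios of 1.18 [1.12, 1.24] and 1.05 [0.989, 1.12]. The LATS cofactors MOB1A (0.644 and 0.657) and MOB1B (0.725 and 0.421) were lower in A375 by less than the limit with at least 1 kit. By mean TPM over all wells both were past the limit with both kits, and MOB1A also as a mean of well CPM. Of 10 MAP4K and TAO kinases, which act in parallel with or above MST1 and MST2, 2 were higher in A375 and 3 were lower, beside 24.8% and 15.2% of all genes. MAP4K4 stood in Jurkat at 767 and 685 CPM against 170 and 174 CPM, 4.50-fold and 3.94-fold lower in A375. MAP4K1, a kinase of blood cells, was at 55.9 and 48.7 CPM in Jurkat against 3 counts and 1 count in A375. TAOK3 was 3.41-fold and 3.63-fold lower in A375. MAP4K3 (15.7-fold and 5.20-fold) and TNIK (3.65-fold and 3.80-fold) were higher in A375. For MAP4K3 45 of 47 Jurkat counts with kit 634413 came from well 16, and without well 18 of kit 634444 the ratio was 10.4. Without Jurkat wells 4 or 14 of kit 634413 the TNIK ratio was 7.75 or 6.23, and without well 18 of kit 634444 it was 12.8. TAOK1 (1.74 and 1.40), MINK1 (1.44 and 1.35) and TAOK2 (1.27 and 1.11) were among those that did not pass.

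Of 11 upstream scaffolds and junction proteins, 8 were higher in A375 and 0 lower, beside 24.8% and 15.2% of all genes. The member AMOTL2 is among the 8. PTPN14, a phosphatase that binds YAP1, was at 239 and 206 CPM in A375 against 2.24 and 3.33 CPM in Jurkat, 107-fold [77.2, 155] and 61.9-fold [45.7, 86.2]. The KIBRA family followed, WWC1 at 5.23-fold and 16.8-fold, WWC2 at 10.7-fold and 23.3-fold and WWC3 at 18.5-fold and 13.5-fold. Several of these Jurkat sums lay in 1 well: all 115 WWC2 counts with kit 634413 were in well 14, and without it the ratio was at least 390. With kit 634444 the 46 WWC2 counts were all in well 18, and without it the ratio was at least 325. Without Jurkat well 3 of kit 634413 WWC1 was 68.9-fold higher, and well 11 of kit 634444 held 9 of its 10 counts there. Without Jurkat well 12 of kit 634413 WWC3 was 74.5-fold higher, and without well 5 of kit 634444 25.5-fold. Each of these Jurkat wells held a large part of its group's counts of the gene, so leaving it out had to raise the ratio. PTPN14 was 324-fold higher without Jurkat well 17 of kit 634413, and 109-fold or 94.5-fold without well 12 or 18 of kit 634444. FRMD6 was 3.73-fold and 4.01-fold higher, with all 86 Jurkat counts of kit 634413 in well 7 (at least 99.0-fold without it) and 6.75-fold without well 10 of kit 634444. The atypical cadherin FAT4 was at 31.4 and 56.9 CPM against 0.635 and 0.238 CPM, and its ligand DCHS1 was at 7.05 and 1.65 CPM against 0. All 10 FAT4 counts of Jurkat with kit 634413 were in well 18, and without it the ratio rose from 49.4 to at least 157. DCHS1 rested on A375 wells 14 of kit 634413 and 8 of kit 634444, and without them the bounds fell from 37.0 to 9.05 and from 6.92 to 2.76. AMOTL1 missed the limit narrowly at 2.57-fold and 1.99-fold, and NF2 (0.508 and 0.901) and AMOT (1.91 and 1.18) were not past it. In the Ajuba family WTIP was higher in A375 (2.26-fold and 2.37-fold) and LIMD1 was lower (3.92-fold and 2.12-fold). Without Jurkat well 4 of kit 634413 the WTIP ratio was 4.44.

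**Figure D4:**
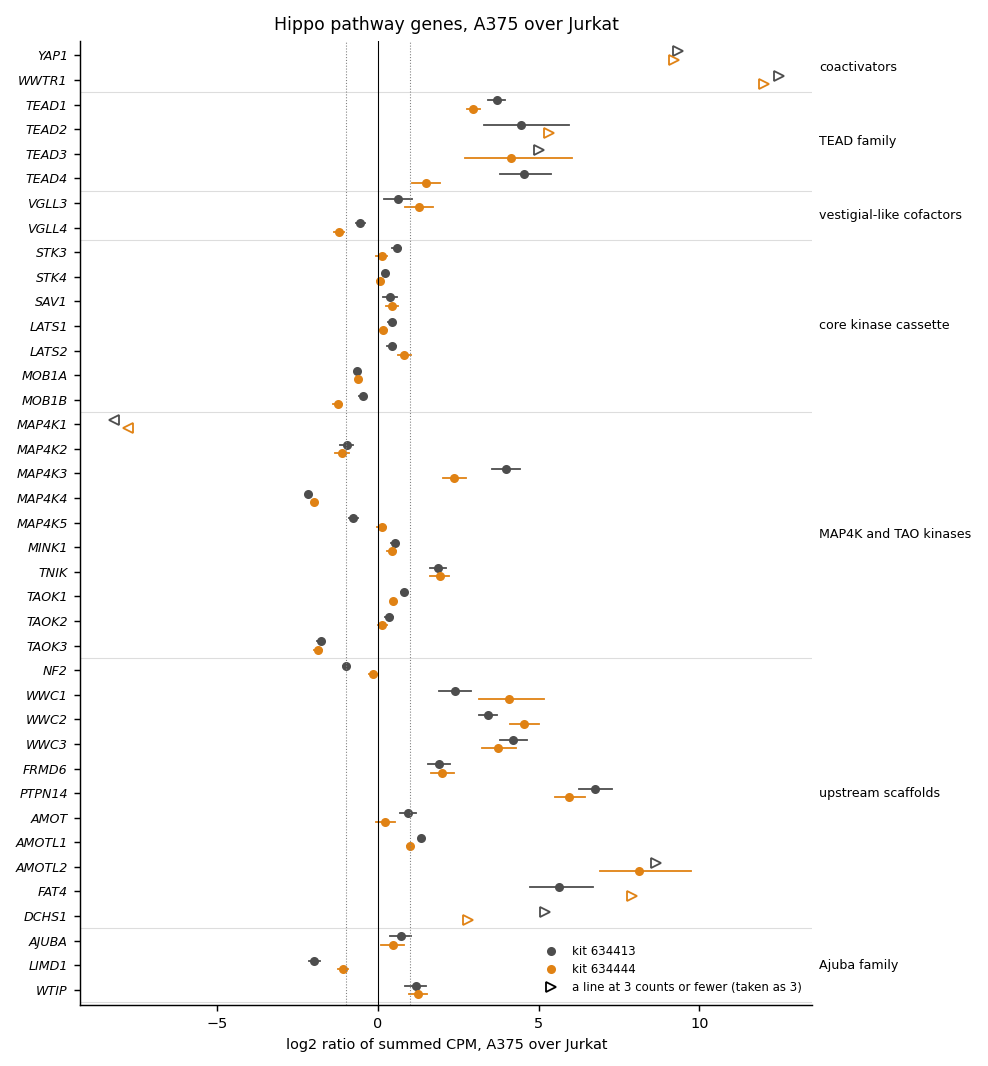
Log2 ratio of summed CPM, A375 over Jurkat, of the 39 Hippo pathway genes with at least 100 counts, by kit. Dots have 95% counting intervals, open triangles mark genes with 3 counts or fewer in a line (taken as 3), and dotted lines mark 2-fold. All TEAD genes and coactivators lie right of 2-fold, and no core kinase cassette gene lies past 2-fold with both kits.

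The target genes were described with a list of 22 textbook targets that includes 5 members. FOXF2 was not analysed here and TGFB2 had fewer than 100 counts. Of the other 20, 17 were at least 2-fold higher in A375 with both kits and 0 were lower, with median log2 ratios of 5.36 and 4.75. Over all genes 24.8% were higher and the medians were 0.158 and 0.143. Like the members, this list was chosen with the difference between the lines known, so nothing is read from its count. The 3 that did not pass were ANKRD1, LATS2 and CCDC80 (1.64-fold with kit 634444). Leaving out 1 well at a time gave 16 to 18 higher. AXL, a receptor tyrosine kinase, was at 125 and 179 CPM in A375 against 1 and 3 counts in Jurkat. CRIM1, a transmembrane protein that binds BMPs, was at 186 and 135 CPM against 2 counts and 0. MYOF, a membrane repair protein, was at 140 and 110 CPM against 5 counts and 0. NT5E, the ectonucleotidase CD73, was 47.1-fold and 46.2-fold higher, and DOCK5, an exchange factor for RAC, 15.9-fold and 14.2-fold higher. All 5 MYOF counts of Jurkat were in well 18, and without it the ratio rose from 440 to at least 697. Each Jurkat well left out here held a large part of its group's counts of the gene, so the ratio had to rise. Without Jurkat well 14 of kit 634413 NT5E was 126-fold higher, without well 17 of kit 634444 70.9-fold, and without well 15 of kit 634444 DOCK5 was 22.5-fold higher. Without Jurkat well 1 of kit 634444 CCDC80 was 2.504-fold higher with that kit, and A375 well 7 held 69 of its 135 counts with kit 634413.

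Other targets had lower levels or hung on few cells. IGFBP3, a secreted binder of insulin-like growth factors, held 64 counts in A375 with kit 634413 and 577 with kit 634444, and 0 in Jurkat. Without A375 well 20 of kit 634444 the IGFBP3 bound fell from 182 to 97.4, and without well 1 of kit 634413 from 21.2 to 9.23. ARHGEF17 with kit 634413 rested on A375 well 17, which held 74 of 80 counts, and without it the ratio was 0.328. GADD45A was 36.4-fold and 4.73-fold higher, RBMS3 18.2-fold and 17.2-fold, FJX1 3.46-fold and 4.93-fold, and ASAP1 3.12-fold and 3.15-fold. NUAK2 (115 and 134 counts against 0 and 1) and F3, which encodes tissue factor (63 and 42 counts against 2 and 4), had few counts in A375 as well. For GADD45A 10 of 11 Jurkat counts with kit 634413 were in well 15. Without A375 well 9 of kit 634413 RBMS3 was 11.99-fold higher, and without Jurkat well 18 63.4-fold. Single wells moved several of these ratios. Without Jurkat well 3 FJX1 was at least 53.4-fold higher with kit 634413 and 17.1-fold with kit 634444. Without A375 well 1 of kit 634413 the NUAK2 bound fell from 38.1 to 25.1, and A375 well 7 held 27 of the 63 F3 counts. ARHGEF17 was 6.82-fold or 6.11-fold higher without Jurkat well 6 or 7 of kit 634413, against 3.77-fold with all wells.

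**Figure D5:**
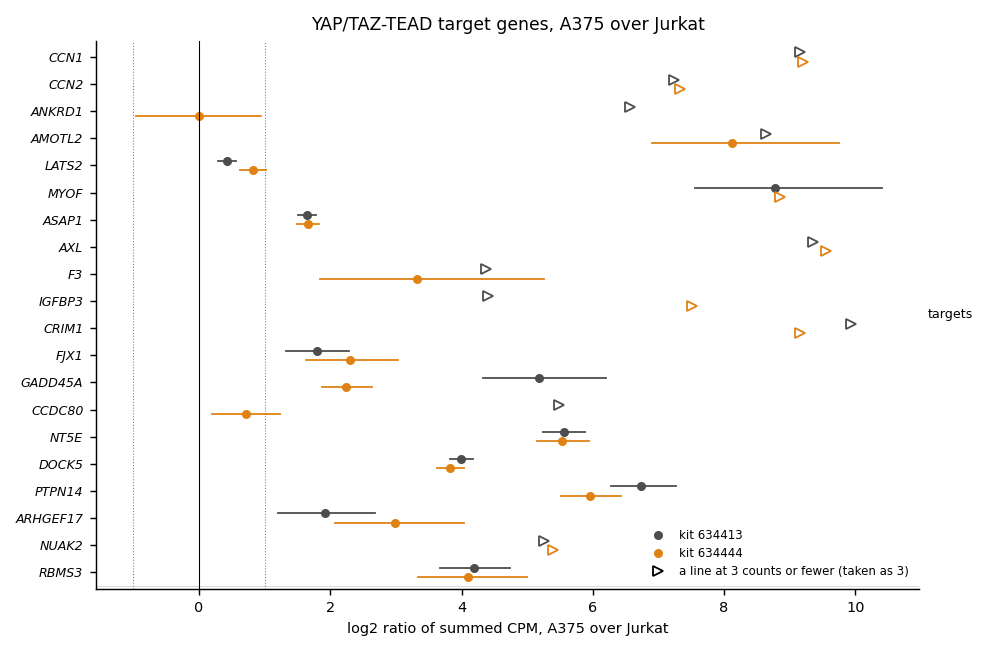
Log2 ratio of summed CPM, A375 over Jurkat, of the 20 target genes with at least 100 counts, by kit, drawn as dots with 95% counting intervals or as open triangles where a line held 3 counts or fewer (taken as 3). ANKRD1, LATS2 and CCDC80 lie within the dotted 2-fold lines with kit 634444, and 17 genes lie right of them with both kits.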

How the data were processed

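The labelled cell line and library kit put each well in 1 of 4 groups. The authors trimmed the paired-end reads and quantified Ensembl v91 transcripts and ERCC spikes with kallisto 0.43.1 in stranded mode. They deposited estimated counts without any normalization and, beside them, TPM. In the TPM the authors' tool divides each estimated count by the effective length of its target. STAR 2.5.3 is listed in the submitters' processing notes.

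Both values were summed per gene and well with GENCODE v44 names. Of 200206 Ensembl targets, 195850 matched. The 4356 unmatched (a median of 5.45% of a well's counts) stayed in the totals. Counts were added over the wells of each line and kit and expressed per 1000000 counts on Ensembl transcripts (CPM). Intervals are exact Poisson or, for ratios, exact for 2 Poisson rates (95%). Bounds against a sum of 0 use 3 counts over the group, which puts them above the exact 95% lower limits. Genes were called at 2-fold in the same direction with both kits, among genes with at least 100 counts. Precision follows the group totals of 12624029 to 15896032 counts.

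The members, lists and limits were chosen with earlier results of these data known. Named are all members, pathway and target genes past the limit and the 3 highest-count others of each of these lists, and the 5 genes most like WWTR1. Alternatives were other denominators, edgeR 4.0.16 TMM factors (R 4.3.3), mean TPM, mean of well CPM, deep wells, other minima and limits, and leaving out each well (added after seeing the data). Python 3.11.15, pandas 2.3.3 and scipy 1.17.1 were used. The wells without a cell were not analysed here.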

Additional observations from a re-analysis of the deposited data

How the results depend on the processing

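Each line and kit counts as 1 sample, so the intervals hold no biological error. Of 111 line ratios of members recomputed, 104 kept direction and size, 1 moved and 6 reversed. ANKRD1 with kit 634444 (log2 −0.0036) was 0.0015 in deep wells, 0.077 with a protein coding denominator and 0.039 with the rDNA unit and spikes in the total. LATS2 with kit 634413 went from 0.43 to −0.35 as a mean of well CPM. AJUBA with kit 634413 (0.71) was −1.74 by mean TPM, and with kit 634444 (0.46) it was −0.37 as a mean of well CPM. Mean TPM and the mean of well CPM give each well the same weight, and the 11 shallow wells, all A375, were included. The cause of the reversals was not tested. Pathway genes lower in A375 numbered 7 by mean TPM and 1 at a 4-fold limit, against 4. The 7 higher members became 6 under both settings, without TEAD4. The log2 ratio of WWTR1 between kits moved from −0.14 to 1.48 by mean TPM, where 7 counts on the short transcript WWTR1-208 in 1 shallow well were worth 6744 TPM. Mean TPM gave no ratio where a line was at 0. The median log2 ratio of all genes was 0.158 and 0.143, and lay over the settings between −0.13 and 0.253 (kit 634413) and between −0.19 and 0.224 (kit 634444). Of 26 isoform shares recomputed by TPM or in deep wells, 11 moved, all of them by TPM. Isoform shares in deep wells only were also chosen after seeing the data.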
